A study of Mus musculus with 4 samples.

Results

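Imprinted genes, which are transcribed mainly from the copy inherited from the mother or mainly from the copy inherited from the father, were followed in mouse morulae as a set of 33 genes matched by symbol. All 33 symbols were present among the 24411 genes listed for each library. By background knowledge 8 of them are expressed from the maternal allele and 24 from the paternal allele, and Gnas gives rise to transcripts of different allelic origin and was kept apart. The siPwp1 group held 2 libraries from embryos given siRNA against Pwp1, and the siControl group held 2 libraries from embryos given control siRNA. In both groups ICR embryos, of an outbred laboratory stock, were made by in vitro fertilization, electroporated with siRNA at 3 hpi and then cultured in KSOM, with bovine serum albumin, until collection as morulae at 72 hpi. Each library pooled 10 embryos, so the values are means over a pool, and fewer cells and less RNA per cell cannot be told apart. Whether the replicates came from separate cultures is not given in the sources used here, and the spread behind each p-value may be technical. The counts per gene carry no allelic information: the parental class below is background, and every value is the total from both alleles. Whether each class holds at the morula stage was not tested.

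Imprinting is set in the germ line. At most imprinted loci DNA methylation laid down in the egg or the sperm marks a control region, and in the early embryo the zinc finger protein ZFP57 and its partner TRIM28 keep that mark while most other methylation is lost. At a smaller group of loci, among them Sfmbt2, Gab1, Slc38a4, Jade1 and Smoc1, the maternal copy is silenced by the histone mark H3K27me3 inherited from the egg, which Polycomb repressive complex 2 deposits. Many imprinted genes act in growth of the fetus and the placenta, and several are first strongly transcribed only after implantation.

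The expected counts summed to 48765229 and 30356988 in siPwp1 replicates 1 and 2, against 28981358 and 44985949 in siControl replicates 1 and 2. Pwp1, the targeted gene, stood at 36.9 and 37.2 CPM (counts scaled to library size by TMM) in siPwp1 and at 215.4 and 364.9 CPM in siControl. The 2 groups did not overlap, and the log2 fold change was -2.97 (SE 0.333; edgeR adjusted p = 0.22, DESeq2 adjusted p = 1.47e-12). Of 10 morula genes fixed as a check of the stage, 8 reached 1 TPM (transcript abundance per length and library total) in every library. The exceptions were Sox2, at 0.34 and 0.11 TPM in siPwp1 and 3.66 and 0.10 TPM in siControl, and Cdx2, at 0.50 TPM in siPwp1 replicate 2. Of these 10 genes 8 had a log2 fold change below 0 (median -0.49), and Pou5f1, Nanog and Sall4 (30%) had both siPwp1 libraries below both siControl libraries, as 14.1% of all genes tested did. Cumulus cell genes summed to 0.10 to 0.43 TPM per library and sperm genes to 0.00 to 3.14 TPM. The 10 blood genes summed to 145.6 and 154.5 TPM in siPwp1 and 38.6 and 117 TPM in siControl, nearly all from the globin gene Hba-a2 at 132.6 and 138.8 TPM in siPwp1 and 36.3 and 111.3 TPM in siControl. All 4 blood genes tested had a log2 fold change above 0 (median 1.19), and Hba-a2 and Cd52 had both siPwp1 libraries above both siControl libraries (14.7% of all genes did), while Hbb-bs, Hbb-bt and Tyrobp were listed at 0 in every library. The 8 fibroblast genes summed to 2.53 and 1.27 TPM in siPwp1 and 0.72 and 0.63 TPM in siControl. Postn, the only one tested, was likewise above (edgeR unadjusted p = 0.04, adjusted p = 0.9998), and Col3a1, Dcn and Lum were listed at 0 throughout. The part of such cells in the values of the imprinted genes was not tested. Log2 CPM correlated across genes at 0.936 between the siPwp1 libraries, 0.933 between the siControl libraries and 0.905 to 0.947 between groups, so the correlation within a group lay inside the range found between groups.

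Promoter sequence is shown for 3 loci on which the values below turn: the start region shared by Peg3 and Usp29, whose levels differed widely, Snrpn, the most abundant member, and Plagl1, the member with the smallest p. Each is a RefSeq window from 250 bases before to 50 bases after a start site on GRCm38.p6, the assembly of the mm10 build, written 5′ to 3′ on the strand of the gene. In the Usp29 window capitals mark the 163 bases between the start sites of Peg3, on the minus strand, and Usp29, on the plus strand. Snrpn has 4 windows in RefSeq, and the one shown is the only one of them that holds the hexamer below. In the Snrpn and Plagl1 windows capitals mark the hexamer TGCCGC or its reverse complement, the letters bound by ZFP57.
Usp29 (chr7:6730333-6730632, plus strand): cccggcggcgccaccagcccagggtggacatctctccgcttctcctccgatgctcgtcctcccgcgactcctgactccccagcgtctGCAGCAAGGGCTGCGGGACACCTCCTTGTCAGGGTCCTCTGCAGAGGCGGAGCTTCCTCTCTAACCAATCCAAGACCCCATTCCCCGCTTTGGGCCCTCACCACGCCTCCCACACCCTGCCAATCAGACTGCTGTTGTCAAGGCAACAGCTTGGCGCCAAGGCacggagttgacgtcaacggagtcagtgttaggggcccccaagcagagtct
Snrpn (chr7:60005150-60005449, minus strand): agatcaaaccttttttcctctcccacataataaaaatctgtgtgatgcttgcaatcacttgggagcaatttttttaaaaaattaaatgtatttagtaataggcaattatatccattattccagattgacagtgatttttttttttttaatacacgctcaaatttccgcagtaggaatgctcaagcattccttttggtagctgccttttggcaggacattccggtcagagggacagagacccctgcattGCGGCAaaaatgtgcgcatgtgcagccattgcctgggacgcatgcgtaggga
Plagl1 (chr10:13090582-13090881, plus strand): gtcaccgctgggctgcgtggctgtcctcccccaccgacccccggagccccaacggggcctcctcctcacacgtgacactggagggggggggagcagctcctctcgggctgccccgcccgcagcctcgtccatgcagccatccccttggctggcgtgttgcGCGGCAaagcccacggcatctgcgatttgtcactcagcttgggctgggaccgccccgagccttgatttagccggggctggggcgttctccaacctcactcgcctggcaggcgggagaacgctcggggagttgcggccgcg
Windows were found for 26 of the 33 members, 46 in all since some genes have several starts. TGCCGC, searched on both strands, was present in 9 of these windows (19.6%), belonging to 8 genes, and in 11.6% of the 32851 promoter windows of all genes. The letters GCCATNTT, bound by YY1 and also searched on both strands, were in 4 member windows (8.70%) and in 6.05% of all windows. The member windows were richer in CpG, with a median of 14.5 per window against 7 over all genes. These matches describe sequence alone, and their bearing on the levels was not tested.

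A few members made up most of the summed TPM of the 33 genes, and many were close to silent. The 49 other imprinted genes treated further below summed to more, at 605.6 and 593 TPM in siPwp1 and 664 and 636.3 TPM in siControl. The 33 genes summed to 441.3 and 545 TPM in siPwp1 and 502.3 and 525.1 TPM in siControl. Snrpn and Gnas together took 73.7% and 69.9% of the summed TPM of the 33 genes in siPwp1 and 73.1% and 76.0% in siControl. Of the 33 genes, 16 reached 1 TPM in every library, 13 stayed under 1 TPM in every library and 4 lay on both sides.

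**Figure D1:**
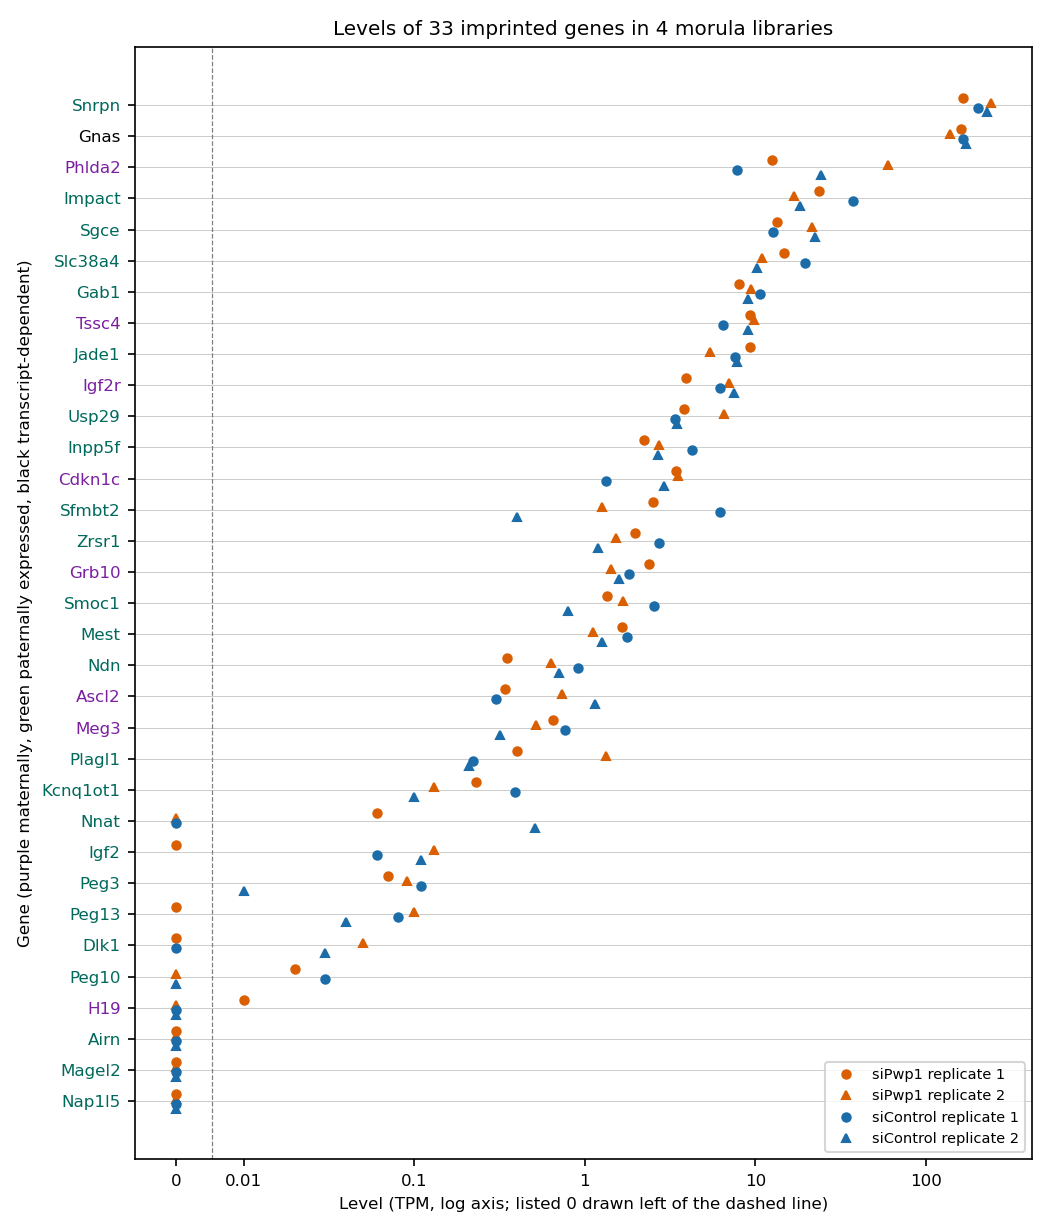
Level of each of the 33 imprinted genes (TPM, log axis, listed zeros drawn left of the dashed line) in siPwp1 (orange) and siControl (blue), circles for replicate 1 and triangles for replicate 2, ordered by the mean over the 4 libraries. Snrpn and Gnas lie above 100 TPM in every library, and Airn, Magel2 and Nap1l5 are listed at 0 throughout.

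Snrpn, which encodes the splicing protein SmN, was the most abundant member. It stood at 165 and 241.8 TPM in siPwp1 and at 203 and 227.4 TPM in siControl, and the groups overlapped. It lies on chromosome 7 from 59982495 to 60140219 on the minus strand and shares 9601 bases on the same strand with Snurf, so reads may be divided between them. Snurf itself was listed at 7.33 and 14.0 TPM in siPwp1 and 8.82 and 18.6 TPM in siControl. Gnas, the gene of the stimulatory G protein alpha subunit, followed at 160.2 and 139 TPM in siPwp1 and 164 and 171.8 TPM in siControl. The range of Gnas overlapped that of Snrpn and lay wholly above that of every other member. From rank 3 (Phlda2) to rank 18 (Mest) each gene's range over the 4 libraries overlapped that of the next, so the order among these neighbours is not resolved.

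Between 10 and 60 TPM in most libraries lay Phlda2, a restrainer of placental growth, Impact, a regulator of the amino acid sensor Gcn2, Sgce, which encodes epsilon-sarcoglycan, and the amino acid transporter gene Slc38a4. Impact stood at 23.5 and 16.9 TPM in siPwp1 and 37.4 and 18.2 TPM in siControl. The adaptor gene Gab1, Tssc4, the chromatin gene Jade1 and Igf2r, which encodes the receptor that clears insulin-like growth factor 2, formed the next step, with means over the 4 libraries from 6.15 to 9.29 TPM. Of the maternally expressed genes 5 of 8 reached 1 TPM in every library, and of the paternally expressed genes 10 of 24.

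Several members were at or near the detection limit. H19, a maternally expressed non-coding RNA, had 1 count in siPwp1 replicate 1 and none in the other 3 libraries. Its paternally expressed neighbour Igf2, a growth factor gene, had 0 and 14 counts in siPwp1 and 6 and 15 counts in siControl, or at most 0.13 TPM. Dlk1, which encodes a transmembrane relative of Notch ligands, had 0 and 5 counts in siPwp1 and 0 and 5 in siControl. Meg3, the maternally expressed non-coding RNA of the same locus, was low but above that limit in every library, at 0.65 and 0.52 TPM in siPwp1 and 0.76 and 0.32 TPM in siControl. Nnat, a gene known from neurons, had 3 and 0 counts in siPwp1 and 0 and 19 in siControl, and it lies within Blcap on the other strand. Airn, Magel2 and Nap1l5 had no count in any library. A count of 3, taken as the limit that a count of 0 allows, corresponds to 0.0594 to 0.104 CPM. A listed 0 therefore does not exclude levels up to that limit. This limit covers counting error only.

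Neighbouring members were present at unequal levels at 3 loci. Usp29, which encodes a ubiquitin protease, and Peg3, which encodes a zinc finger protein, start 164 bases apart on opposite strands of chromosome 7, within the window printed above, and both are expressed from the paternal allele. Usp29 stood at 3.83 and 6.56 TPM in siPwp1 and 3.38 and 3.45 TPM in siControl. Peg3 stood at 0.07 and 0.09 TPM in siPwp1 and 0.11 and 0.01 TPM in siControl. Summed over the 4 libraries this was 4483 counts for Usp29 and 62.95 for Peg3, from transcripts of similar length, 7476 and 6624 bases in the files. In each library Usp29 was thus the higher gene of the pair. Usp29 also overlaps Zim3 over 11535 bases on the other strand, so some of its reads may belong there.

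The same held at the locus of Sgce and Peg10, a paternally expressed gene derived from a retrotransposon and needed in the placenta. Sgce, on chromosome 6 from 4674350 to 4747207 on the minus strand, stood at 13.4 and 21.4 TPM in siPwp1 and 12.6 and 22.5 TPM in siControl. Peg10, on the plus strand from 4747306 to 4760517, had 6 and 0 counts in siPwp1 and 6 and 1 in siControl, or at most 0.03 TPM. Igf2r stood at 3.91 and 6.98 TPM in siPwp1 and 6.20 and 7.50 TPM in siControl. Airn, the paternally expressed antisense RNA known to silence Igf2r on the paternal copy, overlaps it by 28354 bases and had 0 counts in each of the 4 libraries. Whether Igf2r was silent on the paternal copy in these morulae cannot be read from total counts. The Airn transcripts in the files average 898 bases, while the gene spans chromosome 17 from 12741311 to 12860136, so most of that span is not counted.

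**Figure D2:**
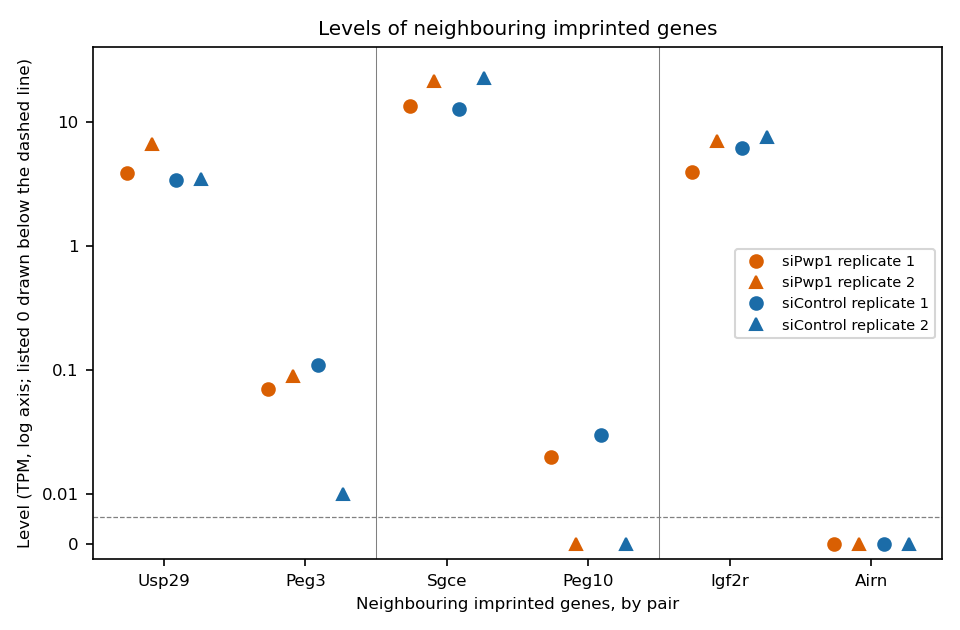
Levels of neighbouring imprinted genes (TPM, log axis, listed zeros drawn below the dashed line) in siPwp1 (orange) and siControl (blue), circles for replicate 1 and triangles for replicate 2. Usp29, Sgce and Igf2r exceed 3 TPM in every library, while Peg3, Peg10 and Airn stay at or under 0.11 TPM.

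The comparison of siPwp1 with siControl asks whether imprinted transcripts differ in morulae in which Pwp1 is targeted. No imprinted gene was called. Of the 33 members 26 passed the filter on low counts and were tested, and edgeR called 0 of them at an adjusted p under 0.05, with 0 (0%) called among all 13585 genes. DESeq2 also called 0 of the 26, against 0.324% of all genes. At an unadjusted p under 0.05 edgeR had 1 member, Plagl1, against 2.66% of all genes. Both siPwp1 libraries lay above both siControl libraries for 4 of the 26 (15.4%), namely Usp29, Plagl1, Cdkn1c and Tssc4, against 14.7% of all genes tested. Both lay below for 2 of the 26 (7.69%), Ndn and Gnas, against 14.1% of all genes. The first share is near the background, the second rests on 2 genes, and neither is a result about imprinted genes. The median log2 fold change was 0.28 over the 7 maternally expressed genes tested, -0.20 over the 18 paternally expressed genes tested and -0.001 over all genes tested. Without siControl replicate 1 the paternal median was 0.20, so its sign rests on that library, and the maternal median ranged from 0.20 to 0.49 over the 4 fits that leave out a library. A p that misses the threshold does not show that levels did not differ, and the standard errors of the members ranged up to 1.99 on the log2 scale.

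**Figure D3:**
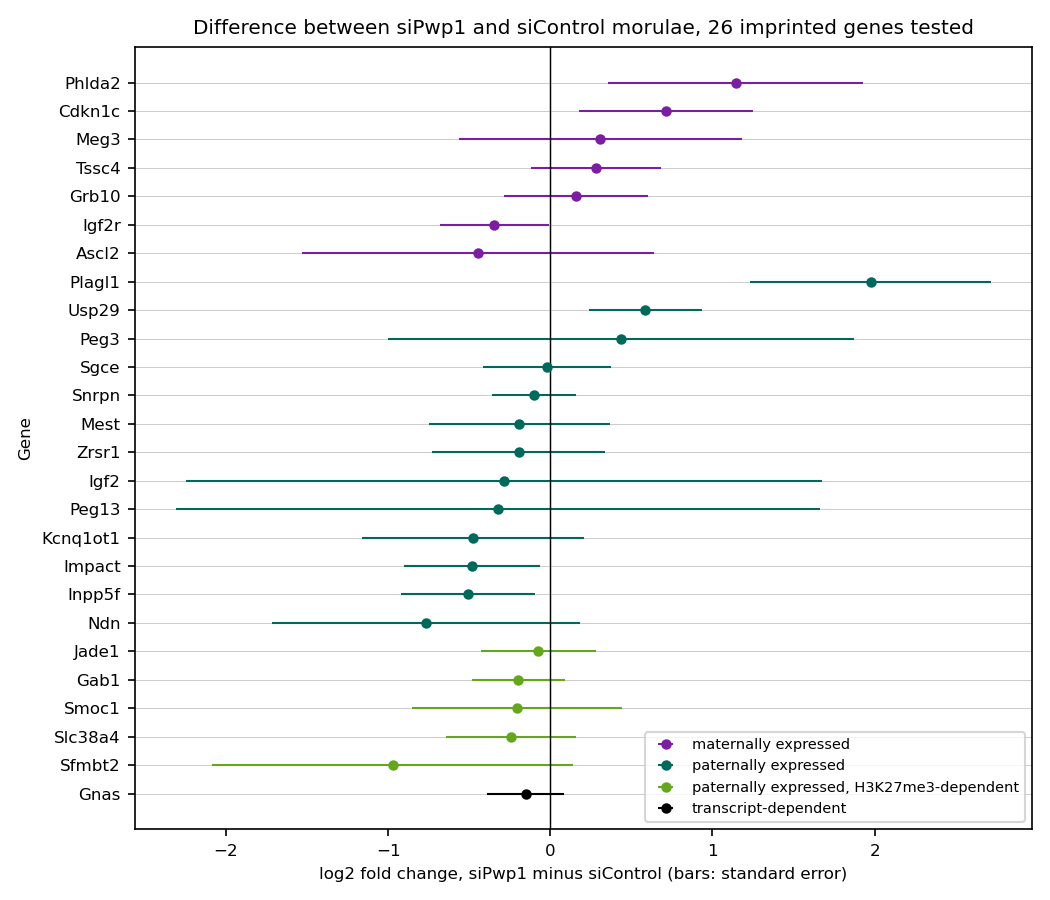
Log2 fold change of siPwp1 minus siControl for the 26 imprinted genes tested, by parental class and with standard errors as bars (n = 2 libraries in each group). Plagl1 lies farthest to the right at 1.98, and 0 of the 26 passed the adjusted threshold.

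Among the maternally expressed genes, 5 of the 7 tested had a log2 fold change above 0 and 2 below it. Those of the Kcnq1ot1 domain on distal chromosome 7 include Phlda2, Cdkn1c, Tssc4 and Ascl2. Phlda2 stood at 5.84 and 26.6 CPM in siPwp1 and at 3.82 and 10.8 CPM in siControl. The groups overlapped, replicate 2 was the higher library in each, and the log2 fold change was 1.14 (SE 0.788; edgeR adjusted p = 0.9998). Without siPwp1 replicate 2 it was -0.32, without siControl replicate 2 it was 2.08, and without siPwp1 replicate 1 it was 1.86. The oocyte markers in sum also had replicate 2 as the higher library of each group. The 9 in the files summed to 8.73 and 24.1 TPM in siPwp1 and 5.68 and 16.9 TPM in siControl. Zp3 alone stood at 3.43 and 16.3 TPM in siPwp1 and 3.00 and 10.4 TPM in siControl. Zp2, Bmp15, Oosp1 and Zar1 were also higher in replicate 2 of both groups, while Gdf9, Nlrp5, Mos and Zp1 were not. Of the 7 oocyte markers tested 5 had a log2 fold change above 0 and 2 below it (median 0.29). Zp1 and Bmp15 (28.6%) had both siPwp1 libraries above both siControl libraries, as 14.7% of all genes tested did. Mos was at 0 in both siControl libraries and Zp1 in siControl replicate 2, and the part of oocyte RNA in the level of Phlda2 was not tested. Cdkn1c, which encodes an inhibitor of cyclin-dependent kinases, stood at 5.56 and 5.51 CPM in siPwp1 and at 2.22 and 4.505 CPM in siControl. Its siControl libraries differed by 1.003 on the log2 scale, more than the log2 fold change of 0.72 (SE 0.536; edgeR adjusted p = 0.9998), which was 0.30 when siControl replicate 1 was left out and 1.32 when replicate 2 of that group was. Tssc4 stood at 9.76 and 8.80 CPM in siPwp1 and 6.59 and 8.67 CPM in siControl, so the groups were just apart (log2 fold change 0.28, SE 0.4; edgeR adjusted p = 0.9998). Leaving out siControl replicate 1 gave 0.10 for Tssc4, and leaving out siControl replicate 2 gave 0.49. It overlaps Trpm5 on the other strand over its whole length. Ascl2, a trophoblast transcription factor gene, was low, at 0.455 and 0.930 CPM in siPwp1 and 0.416 and 1.46 CPM in siControl.

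The other maternally expressed genes tested overlapped between the groups, as 9685 of the 13585 genes tested did. Igf2r stood at 33.5 and 57.7 CPM in siPwp1 and 54.6 and 61.3 CPM in siControl. Grb10, which encodes an adaptor that restrains growth factor signalling and is expressed from the other allele in neurons, stood at 10.97 and 6.34 CPM in siPwp1 and 8.29 and 7.23 CPM in siControl. Meg3 stood at 1.46 and 1.33 CPM in siPwp1 and 1.70 and 0.569 CPM in siControl.

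Of the 18 paternally expressed genes tested 3 had a log2 fold change above 0 and 15 below it. Without siControl replicate 1 these numbers were 11 and 7. Among the paternally expressed genes, Plagl1 showed the largest log2 fold change of the 26 members. It encodes a zinc finger transcription factor that acts on other genes of fetal growth, and spans bases 13060504 to 13131694 of chromosome 10 (plus strand). It had 101 and 191 counts in siPwp1 and 32 and 44 counts in siControl, or 1.999 and 6.34 CPM in siPwp1 against 1.11 and 1.001 CPM in siControl. Both siPwp1 libraries were above both siControl libraries, and siPwp1 replicate 2 was far above replicate 1. The log2 fold change was 1.98 (SE 0.743; edgeR unadjusted p = 0.0332, adjusted p = 0.9998; DESeq2 adjusted p = 0.897). Without siPwp1 replicate 2 it was 0.93, and over the fits that leave out a library the edgeR adjusted p ranged from 0.279 to 0.9999.

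Usp29 stood at 27.3 and 45.1 CPM in siPwp1 and at 24.7 and 23.5 CPM in siControl. The groups did not overlap, but siPwp1 replicate 1 was close to the siControl libraries (log2 fold change 0.59, SE 0.35; edgeR adjusted p = 0.9998), and without siPwp1 replicate 2 the log2 fold change was 0.19 and without siPwp1 replicate 1 it was 0.90. Peg3, next to it, stood at 0.455 and 0.565 CPM in siPwp1 and 0.694 and 0.0683 CPM in siControl and overlapped. Ndn, which encodes necdin and lies in the Snrpn domain, stood at 0.475 and 0.830 CPM in siPwp1 and at 1.28 and 0.933 CPM in siControl, from 24 to 41 counts per library (log2 fold change -0.77, SE 0.949; edgeR adjusted p = 0.9998). The gap between the groups, from 0.830 to 0.933 CPM, was smaller than the difference between the replicates of either group. The log2 fold change of Ndn was -0.41 without siPwp1 replicate 1 and -1.21 without siPwp1 replicate 2. Snrpn stood at 278.1 and 391.9 CPM in siPwp1 and 352.8 and 366 CPM in siControl, with a log2 fold change of -0.10 (SE 0.26; edgeR adjusted p = 0.9998).

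The non-coding RNA Kcnq1ot1, which silences its neighbours on the paternal copy, stood at 18.8 and 10.03 CPM in siPwp1 and 32.7 and 7.60 CPM in siControl. Its transcript is 83437 bases long in the files, so on the TPM scale it was low, at 0.23 and 0.13 TPM in siPwp1 and 0.39 and 0.10 TPM in siControl. It lies within Kcnq1 on the other strand, and Kcnq1 had no count in any library. Impact stood at 73.7 and 51.0 CPM in siPwp1 and 120.4 and 54.2 CPM in siControl. Zrsr1, an intronless relative of a splicing factor gene that lies within Commd1 on the other strand, stood at 8.17 and 6.18 CPM in siPwp1 and 11.7 and 4.78 CPM in siControl. In these 3 genes replicate 2 was the lower library of each group. Mest, an enzyme-like gene active in mesoderm, stood at 3.48 and 2.36 CPM in siPwp1 and 3.96 and 2.73 CPM in siControl, and Sgce at 19.02 and 29.2 CPM in siPwp1 and 18.5 and 30.4 CPM in siControl. The phosphatase gene Inpp5f, of which a shorter transcript form is imprinted, stood at 9.76 and 11.7 CPM in siPwp1 and 19.3 and 11.3 CPM in siControl. The files list a single transcript for Inpp5f, of 4740 bases, so the imprinted form is not told apart. With Inpp5f left out the median log2 fold change of the paternally expressed genes was -0.20. Igf2 and Peg13 passed the filter with at most 15 counts in any library, and each had a library with 0.

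The 5 genes whose imprint depends on H3K27me3 all overlapped between the groups, as 9685 of the 13585 genes tested did. All 5 had a log2 fold change below 0 (median -0.21). Without siControl replicate 1 it was 2.32 for Sfmbt2, 0.94 for Smoc1, 0.37 for Slc38a4, -0.02 for Gab1 and -0.04 for Jade1. Sfmbt2, which encodes a Polycomb protein and hosts a large microRNA cluster active in the placenta, was the most variable. It stood at 14.7 and 6.18 CPM in siPwp1 and at 39.1 and 2.09 CPM in siControl, so the siControl libraries held both its highest and its lowest value. The log2 fold change was -0.97 (SE 1.11; edgeR adjusted p = 0.9998), and leaving out siControl replicate 1 turned it to 2.32. Leaving out replicate 2 of that group gave -1.90 (edgeR adjusted p = 0.0604, the lowest of any member when a library was left out), leaving out siPwp1 replicate 1 gave -1.74 and leaving out siPwp1 replicate 2 gave -0.47. Smoc1, which encodes a secreted calcium-binding protein, stood at 4.26 and 5.08 CPM in siPwp1 and at 8.36 and 2.43 CPM in siControl. Slc38a4 stood at 53.6 and 38.3 CPM in siPwp1 and 73.2 and 35.6 CPM in siControl. For these 3 genes siControl replicate 1 was the highest and siControl replicate 2 the lowest of the 4 libraries. Gab1 was steadier, at 36.9 and 41.7 CPM in siPwp1 and 50.4 and 39.8 CPM in siControl. Jade1 stood at 47.7 and 26.8 CPM in siPwp1 and 40.1 and 38.4 CPM in siControl. Of the 10 morula genes, 6 were also highest in siControl replicate 1: the trophectoderm genes Cdx2 and Gata3, the inner cell mass genes Sox2 and Nanog, Pou5f1 and Cdh1. Cdx2 stood at 5.76 and 0.897 CPM in siPwp1 and 15.4 and 2.14 CPM in siControl, and Gata3 at 48.1 and 17.0 CPM in siPwp1 and 126.3 and 22.7 CPM in siControl. The other trophectoderm regulators on that list were not highest there. Tead4 stood at 32.996 and 36.9 CPM in siPwp1 and 34.6 and 49.1 CPM in siControl, Tfap2c at 76.3 and 90.7 CPM in siPwp1 and 82.3 and 81.4 CPM in siControl, and Klf5 at 177.1 and 138.7 CPM in siPwp1 and 139.3 and 165.3 CPM in siControl. Nanog stood at 197.9 and 273.1 CPM in siPwp1 and 422.4 and 291 CPM in siControl. The part of the makeup or stage of the pools in the values of Sfmbt2, Smoc1 and Slc38a4 was not tested.

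**Figure D4:**
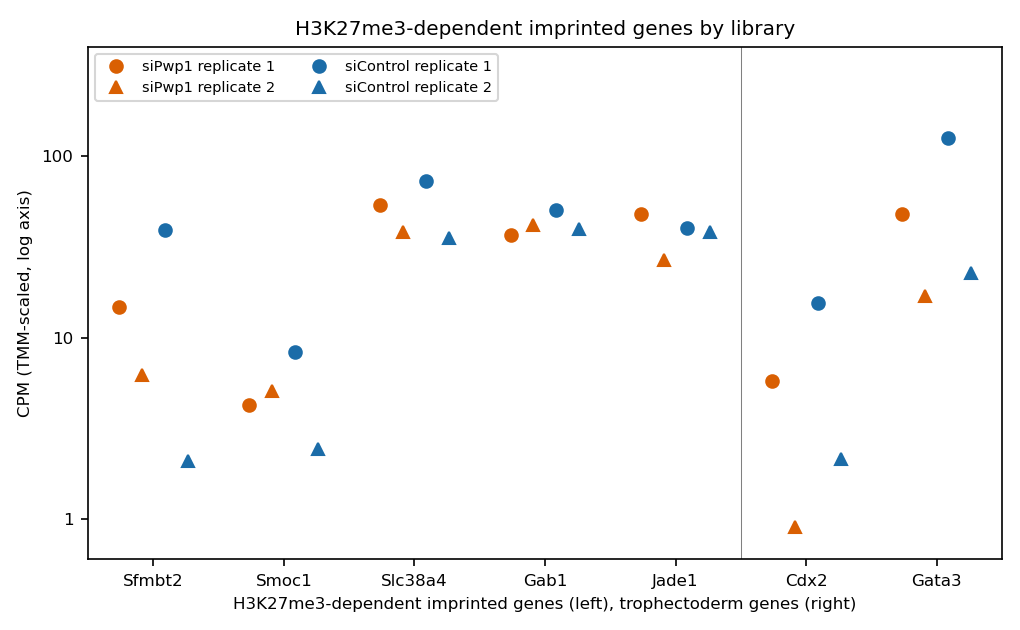
CPM (log axis) of the 5 H3K27me3-dependent imprinted genes and, at the right, of the trophectoderm genes Cdx2 and Gata3 in siPwp1 (orange) and siControl (blue), circles for replicate 1 and triangles for replicate 2. Sfmbt2 spans 2.09 to 39.1 CPM within siControl, while Gab1 spans 36.9 to 50.4 CPM over all 4 libraries. The other trophectoderm regulators on the morula list, Tead4, Tfap2c and Klf5, are not drawn and were not highest in siControl replicate 1.

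Gnas stood at 206.2 and 177 CPM in siPwp1 and at 209.9 and 215.9 CPM in siControl. Both siPwp1 libraries were below both siControl libraries, siPwp1 replicate 1 by a small margin (log2 fold change -0.15, SE 0.237; edgeR adjusted p = 0.9998), and without siPwp1 replicate 2 the log2 fold change was -0.04 and without siPwp1 replicate 1 it was -0.27. The gene produces maternally, paternally and biallelically expressed transcripts, which these values sum, and it overlaps the antisense gene Nespas.

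Differences between replicates of a group were larger in median size than the difference between groups, as they were over all genes tested. For 24 of the 26 genes tested the log2 fold change was smaller in size than the difference between replicates in at least 1 group. The exceptions were Ndn and Plagl1. For 13 genes the log2 fold change was smaller than the replicate difference in both groups. A group mean averages 2 libraries while a replicate difference sets single libraries apart, so a high count is likely without any group effect. The share over all genes was not counted. The median size of the replicate difference was 0.59 in siPwp1 and 0.74 in siControl on the log2 scale for the 26 genes. Over all genes tested it was 0.46 and 0.55. The median size of the log2 fold change was 0.32 for the 26 genes and 0.30 over all genes tested. Replicate 2 was above replicate 1 in both groups for 6 genes, among them Phlda2 by 2.18 in siPwp1 and 1.49 in siControl and Ascl2 by 0.95 and 1.69. It was below replicate 1 in both groups for 9 genes, among them Sfmbt2 by -1.25 in siPwp1 and -4.19 in siControl and Kcnq1ot1 by -0.90 and -2.10. The remaining 11 went opposite ways, and the shares of these directions over all genes were not counted. The replicate numbers are not stated to mark a shared culture or day.

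**Figure D5:**
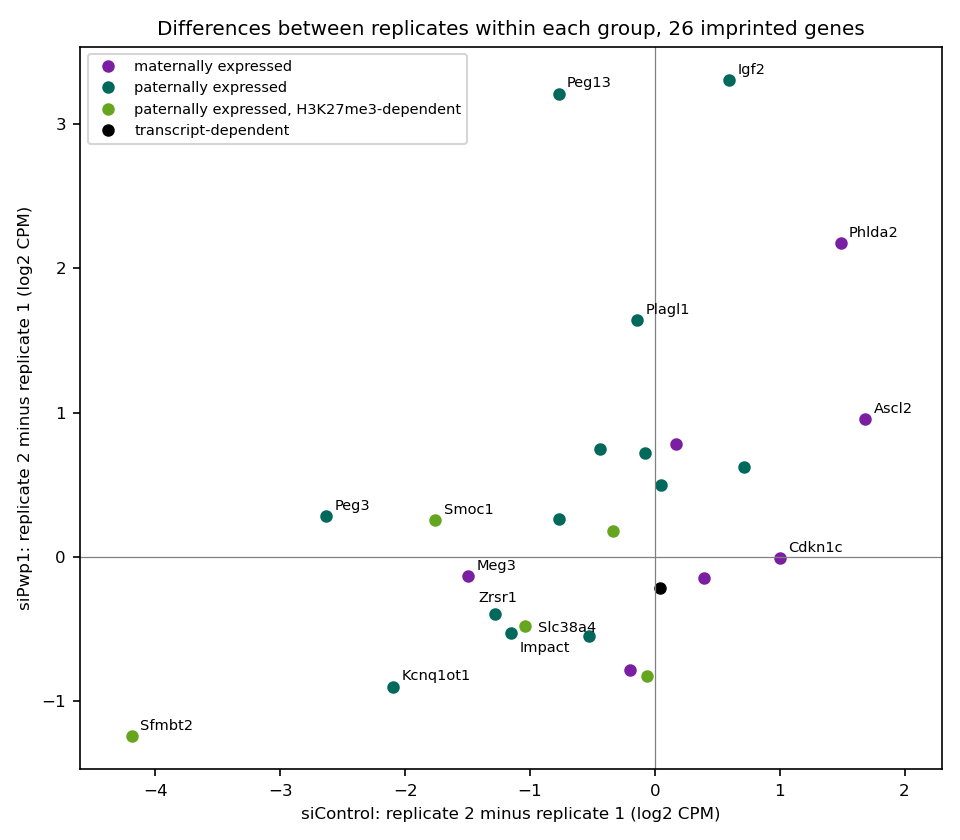
Difference between replicate 2 and replicate 1 (log2 CPM) within siPwp1 (vertical) and within siControl (horizontal) for the 26 imprinted genes tested, with names where it exceeds 1 in either group. Sfmbt2 lies lowest on both axes, and Phlda2 is above 1 on both.

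The genes listed as imprint factors gave 0 calls as well. The list also holds genes that add or remove DNA methylation, among them Tet2, so not every gene on it keeps imprints. Of its 25 tested genes 2 lay apart and higher (8%, against 14.7% of all genes) and 2 apart and lower (8%, against 14.1%). The genes apart and lower, Tet2 and Hells, named after their values were seen, also had an edgeR unadjusted p under 0.05, which 2.66% of all genes had. Dppa3, a maternal protein that shields methylation in the zygote, was very abundant, at 19572 and 25306 TPM in siPwp1 and 19845 and 22948 TPM in siControl. Trim28 stood at 83.9 and 53.8 TPM in siPwp1 and 83.5 and 60.5 TPM in siControl. Zfp57 stood at 6.74 and 17.5 TPM in siPwp1 and 3.21 and 14.8 TPM in siControl. Replicate 2 was the higher library in each group, as for Phlda2 and the sum of the oocyte markers. Zfp445, a second zinc finger gene of imprint maintenance, stood at 7.60 and 6.57 TPM in siPwp1 and 8.30 and 6.97 TPM in siControl. Dnmt1, the maintenance methyltransferase gene, was low, at 1.76 and 1.79 TPM in siPwp1 and 2.42 and 1.45 TPM in siControl. Its partner Uhrf1 stood at 3.77 and 1.89 TPM in siPwp1 and 15.8 and 2.14 TPM in siControl, with siControl replicate 1 the highest library, as for Sfmbt2.

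Of 11 tested genes of Polycomb repressive complex 2, edgeR called 0, 0 lay apart and higher and 2 apart and lower (18.2%, near the 14.1% of all genes). The genes apart and lower were Ezh2 and Jarid2, of which Jarid2 was named after its values were seen. The core subunit gene Eed stood at 187.5 and 240.4 TPM in siPwp1 and 153.4 and 253.9 TPM in siControl. Suz12 stood at 123.5 and 154.9 TPM in siPwp1 and 175.7 and 134.8 TPM in siControl. The methyltransferase gene Ezh2 was at 46.3 and 44.8 TPM in siPwp1 and 46.0 and 57.1 TPM in siControl. Among 49 other imprinted genes in the files 31 were tested, 0 were called, 4 lay apart and higher (12.9%, against 14.7% of all genes) and 5 apart and lower (16.1%, against 14.1%), with a median log2 fold change of 0.01. Cd81, named after its values were seen, was the only one with an edgeR unadjusted p under 0.05 (0.0185), at 16.1 and 7.41 CPM in siPwp1 and 4.48 and 3.32 CPM in siControl. Xist, the non-coding RNA of X inactivation, which the female mouse morula expresses from the paternal X, stood at 64.1 and 112.3 CPM in siPwp1 and 85.9 and 118.2 CPM in siControl, and the groups overlapped (log2 fold change -0.21, SE 0.347; edgeR adjusted p = 0.9998). No sex is listed for the pooled embryos, and the part of the share of females in the level of Xist was not tested.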

How the data were processed

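The authors deposited RSEM expected counts per gene, not normalized, and TPM, scaled within each library, per the file headers. FPKM in the deposited files were not used. Lengths in the files are other values that the authors deposited. Per the submitters' processing notes the tools were STAR 2.7.10 and RSEM 1.3.3, and the build was mm10. How reads were trimmed, which annotation was used and whether counting was stranded is not given in the sources used here. Genes overlapping on opposite strands may share reads. Expected counts were rounded and tested over all genes with edgeR 4.0.16 (quasi-likelihood) in R 4.3.3, with group as the term, TMM scaling and filterByExpr at a minimum count of 10. P-values are two-sided with Benjamini-Hochberg adjustment at 0.05. Each standard error is the size of the log2 fold change divided by the root of its F statistic. Alternatives were no filter, 5 CPM in 2 libraries, DESeq2 size factors, DESeq2 1.42.0, the replicate block, each library left out, a threshold of 0.1, classes without Grb10, Inpp5f or the H3K27me3-dependent genes, and limma 3.58.1 on log2(TPM + 1), whose pseudocount of 1 understates changes of low genes. The tests were tried on simulated data. Positions are from GENCODE M21 (GRCm38). Members and lists were chosen with earlier results of these data known. By rule, per-library values go to members that passed the filter and full statistics to those whose groups do not overlap or with an unadjusted p under 0.05. Phlda2, Snrpn, Sfmbt2 and Xist were given full statistics after their values were seen. Outside the members the rule names Pwp1, imprint and Polycomb factors, Xist and overlapping genes. With 2 libraries per group an exact permutation test was not used.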

Additional observations from a re-analysis of the deposited data

How the results depend on the processing

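Over the transcriptome 0 genes were called, against 106 with no filter, 44 with the DESeq2 Wald test, 80 with the replicate block and 6 to 142 when 1 library was left out (102 and 38 on leaving out siPwp1 replicates 1 and 2, and 6 and 142 on leaving out siControl replicates 1 and 2). The strict filter, DESeq2 size factors, limma and a threshold of 0.1 gave 0. The imprinted genes called were 0 under every alternative, including the block. Replicate numbers are not known to pair the libraries. The difference of replicate 2 from replicate 1 correlated between the groups at 0.317 across all genes and at 0.456 across the 26 members tested. Of the 26 genes tested, 9 kept the sign of their log2 fold change under every alternative that gave a value and 17 did not. The filter of 5 CPM gave one for only 18, and not for Ndn and Plagl1, which are among the 9. Usp29, Cdkn1c, Tssc4 and Gnas are also among the 9. The groups of all these named genes do not overlap, so leaving out 1 library could hardly change their sign. Their kept sign is therefore no separate support, and the share over all genes was not counted. With limma on TPM, Plagl1 was at 0.57 and Ndn at -0.28. The changed signs outside leave-one-out fits were Sgce, 0.016 with the filter of 5 CPM and 0.0073 with limma on TPM, and, with the replicate block, Sfmbt2 at 0.0072 and Smoc1 at 0.029. With 1 library left out at a time the log2 fold changes that crossed 0 ranged as follows: Ascl2 -1.08 to 0.72, Grb10 -0.29 to 0.50, Igf2 -6.52 to 0.74, Impact -0.95 to 0.20, Jade1 -0.55 to 0.29, Kcnq1ot1 -1.18 to 0.93, Meg3 -0.28 to 1.29, Mest -0.50 to 0.10, Peg13 -6.45 to 0.71, Peg3 -0.45 to 2.85, Phlda2 -0.32 to 2.08, Sfmbt2 -1.90 to 2.32, Sgce -0.36 to 0.38, Slc38a4 -0.67 to 0.37, Smoc1 -0.84 to 0.94, Snrpn -0.36 to 0.12 and Zrsr1 -0.70 to 0.59. The lowest values of Igf2 and Peg13 are set by a library with 0 counts, depend on the prior count and are no bound. The largest standard errors were those of Peg13 (1.99), Igf2 (1.96), Peg3 (1.44) and Sfmbt2 (1.11), and only 2 libraries stand behind each group.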
